A study of Mus musculus with 5 samples.

Results

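WT1 peaks were examined at 6 loci of immediate-early and growth control genes, Egr1, Fos, Jun, Junb, Myc and Cdkn1a. The members are the peaks of 4 WT1 CUT&RUN lists that overlap a fixed mm9 window around each gene. The windows were chr18:34980000-35070000 for Egr1, chr12:86770000-86860000 for Fos, chr4:94660000-94770000 for Jun, chr8:87460000-87540000 for Junb, chr15:61770000-61870000 for Myc and chr17:29190000-29280000 for Cdkn1a, 560 kb in all. They held 12 of 6440 peaks in M15 replicate 1 and 37 of 60925 in M15 replicate 2. In KTS-minus replicates 1 and 2 they held 113 of 310999 and 88 of 244428 peaks. After merging of overlapping peaks these formed 142 regions, out of 455287 regions over the 4 whole lists.

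CUT&RUN maps a chromatin protein by letting a nuclease, tethered to the antibody, release the DNA beside it for sequencing. Both groups are cultures of M15, a line of mouse mesonephric epithelium carrying polyoma large T, which all libraries share. One group is M15 itself (2 replicates) and the other is an M15 line genome edited for the WT1 KTS isoforms, labelled KTS-minus (2 replicates). The labels do not say which isoform the edited cells make, or whether they are 1 clone. The WT1 antibody was ab89901 throughout. The 1 IgG library of M15 had no peak list to use, so peaks were not compared with it here. The labels do not state that replicates are separate cultures, and differences between them can be technical. A set of 2 libraries against 2 allows no exact two-sided permutation p below 0.333. No test between the lines was made, and differences are described by whether replicates overlap.

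Immediate-early genes are switched on within minutes of a growth signal, from transcription factors already present in the cell. Egr1 encodes a zinc-finger factor that binds a GC-rich element, and the fingers of WT1 read closely related sites, so that WT1 and the EGR proteins are often described as sharing targets. Fos, Jun and Junb encode subunits of the dimeric factor AP-1. Myc encodes a helix-loop-helix factor that drives growth and cell-cycle entry, and Cdkn1a encodes p21, an inhibitor of cyclin-dependent kinases that restrains it. WT1 occurs in forms with and without the residues KTS between its last fingers, and the form without them is known as the better DNA binder.

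Promoter sequences are shown for the loci at which the sharing of a WT1 peak by all libraries can be set beside an EGR-like element. The RefSeq table (GRCm38.p6) held 5 upstream stretches of 250 bases for 4 of the 6 genes, Fos, Jun, Junb and Cdkn1a, the last with 2 start sites. None of the 5 held GCGNGGGCG, the EGR consensus searched on both strands, against 4.7% of 32851 upstream stretches in the table. GCGTGGGAG, a WT1 element, was also in none (0.405% of all), as were the cyclic AMP element TGACGTCA (1.55%) and the CArG box that serum response factor reads (1.47%). A looser form, GNGNGGGNG, of which GCGNGGGCG and GCGTGGGAG are special cases, was in 2 of the 4 genes and in 35.8% of all stretches. The first is a count of genes and the second a share of stretches. Cdkn1a counts as matched although only the stretch before its second listed start had a match. Matches of the looser form on either strand are in capitals. The Jun stretch lies at chr4:95052223-95052472 (minus strand), the Junb stretch at chr8:84978749-84978998 (minus strand) and the stretch before the second listed Cdkn1a start at chr17:29093519-29093768 (plus strand), in GRCm38 and not in the mm9 of the peaks. Junb, which carried the widest WT1 peaks, is shown as a stretch with no match.
Jun: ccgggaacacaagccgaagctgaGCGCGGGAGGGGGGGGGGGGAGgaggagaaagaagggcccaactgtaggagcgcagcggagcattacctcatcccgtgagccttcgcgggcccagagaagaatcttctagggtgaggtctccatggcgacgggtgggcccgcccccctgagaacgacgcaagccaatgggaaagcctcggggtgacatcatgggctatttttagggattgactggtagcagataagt
Junb: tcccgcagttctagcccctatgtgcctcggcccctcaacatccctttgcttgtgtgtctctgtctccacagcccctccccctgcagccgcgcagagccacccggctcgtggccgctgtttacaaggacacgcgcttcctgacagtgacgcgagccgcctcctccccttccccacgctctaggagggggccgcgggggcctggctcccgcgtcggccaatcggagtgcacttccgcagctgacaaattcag
Cdkn1a: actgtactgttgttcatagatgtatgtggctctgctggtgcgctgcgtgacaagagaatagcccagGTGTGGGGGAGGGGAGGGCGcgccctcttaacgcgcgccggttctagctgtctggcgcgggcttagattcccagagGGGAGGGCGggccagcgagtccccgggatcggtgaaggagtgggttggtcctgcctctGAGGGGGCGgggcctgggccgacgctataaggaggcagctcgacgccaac
In Jun the 8 overlapping matches formed a single guanine-rich run, and the repeat TCCTCCTCC had its only match among the members there, across the end of that run (2.45% of all stretches). In the Cdkn1a stretch the 5 matches lay in 3 places. GC content was 61.2% in Jun, 66.4% in Junb, 64.8% in this Cdkn1a stretch, 54.0% before the other Cdkn1a start and 58.4% in Fos, against a median of 52.4% over all stretches. Among 30 other immediate-early and growth control genes, 24 were in the table. GCGNGGGCG was found for 7 of them, Fosb, Fosl2, Srf, Klf2, Klf4, Nr4a1 and Zfp36, and the CArG box for 3, Egr2, Srf and Zfp36. The looser form was found for 17. A match is a string of letters in this window and not a measured site, and peaks were not assigned to these other genes because no mm9 gene table was used here.

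All 6 loci had a WT1 region shared by all 4 libraries, and at all 6 such a region reached into the 20 kb around the middle of the window. Because gene positions in mm9 were not used, distances are given from the window midpoint, which stands in for the place of the gene. Over the genome, 12.6% of 90 kb tiles held a region in all 4 libraries and 4.0% of 20 kb tiles did. The 10 regions in all 4 libraries were 2 at Egr1, 3 at Fos, 1 at Jun, 2 at Junb, 1 at Myc and 1 at Cdkn1a. They made up 7.04% of the 142 regions, against 1.17% of all regions in the lists, while 66.9% of the regions at the loci and 78.3% of all regions were found in 1 library only. Tiles include gene-poor sequence, and the share of tiles placed on genes was not computed. Without M15 replicate 1, the shortest list, 24 regions were in all remaining libraries.

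The M15 replicates shared 10 regions at the 6 loci, and each of these also had a peak in both KTS-minus libraries. Over the whole lists the same held for most, with 5331 of the 5688 regions in both M15 libraries found in all 4. Of 90 kb tiles, 13.3% held a region in both M15 libraries and 68.3% one in both KTS-minus libraries. For 20 kb tiles the shares were 4.3% and 38.1%. The KTS-minus replicates shared 41 regions, of which 16 (39.0%) had no M15 peak, against 73.7% of the regions they shared over the whole lists, merged along whole chromosomes. No region was found in both M15 libraries and in neither KTS-minus library (1.23% of the regions in both M15 lists). Of 32 regions with a peak in either M15 library, 25 (78.1%) had one in both KTS-minus libraries, against 42.3% over the whole lists. In neither KTS-minus library was 1 of the 32 (3.12%, against 27.6%), a weak M15 replicate 2 peak at the left edge of the Junb window (max signal 4, chr8:87459865-87461061, named after its values were seen). The lists differed in length, and the share of tiles with any peak was 13.8% and 57.1% in M15 replicates 1 and 2 and 95.0% and 94.9% in KTS-minus replicates 1 and 2. The 41 shared KTS-minus regions fell to 5 in lists of equal length. When overlapping peaks had to cover 50% of each other, 11 KTS-minus replicate 1 peaks met one of replicate 2.

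**Figure D1:**
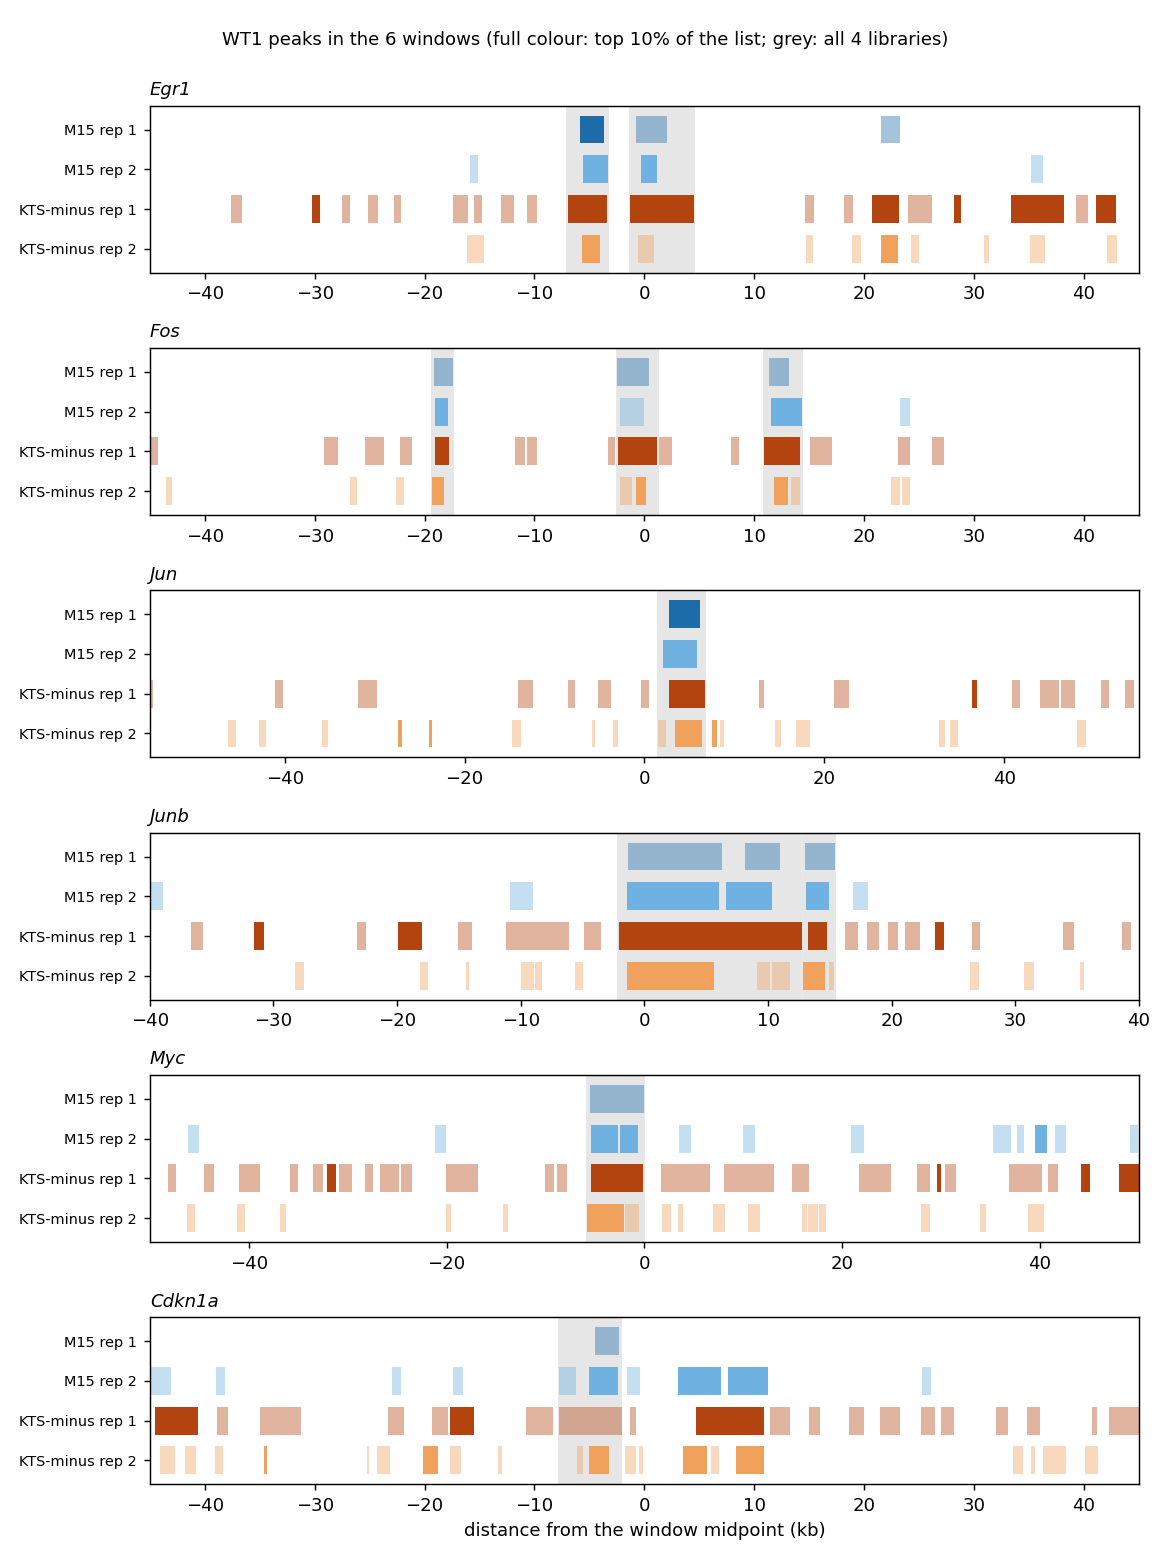
Peaks of the 4 WT1 libraries in the 6 windows; the horizontal axis is the distance from the window midpoint in kb, each bar is a peak drawn to its width, full colour marks peaks in the top 10% of their list by max signal, and grey shading marks the 10 regions with a peak in all 4 libraries. All 6 windows have such a region within 10 kb of the midpoint, and the KTS-minus rows hold many more weaker peaks around it.

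The strength of a peak was described by its rank by max signal (the highest coverage inside the peak) within its own list, given as a percentage of the list, so that a small value is a strong peak. Signal was read only against peaks of its own library. M15 replicate 2 and both KTS-minus libraries had a peak in the top 10% of their list at all 6 loci, but M15 replicate 1 had one at Egr1 and Jun only. The shares of 90 kb tiles with such a peak were 1.94% and 12.7% in M15 replicates 1 and 2, 46.9% and 48.0% in KTS-minus replicates 1 and 2, and 1.85% in all 4. Egr1 and Jun were thus 2 of 6 loci with a top 10% peak in every library. Ranked by total signal there were 4, without M15 replicate 1 there were 6, and in the top 5% there were 0. The shares of tiles under these other settings were not computed, and the 1.85% does not apply to them. Peaks of the top 10% numbered 2 of 12, 14 of 37, 25 of 113 and 17 of 88 in M15 replicates 1 and 2 and KTS-minus replicates 1 and 2.

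**Figure D2:**
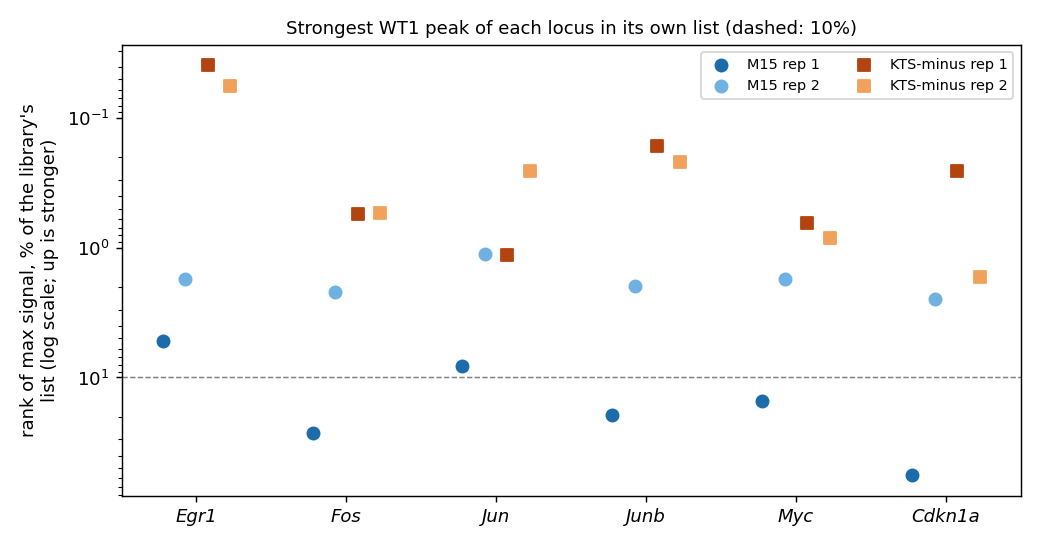
Rank of the strongest peak of each locus, as a percentage of the library's list on a log scale with strong peaks at the top; circles are M15 and squares KTS-minus libraries, and the dashed line is 10%. The Egr1 peak reaches 0.0389% and 0.0563% in the KTS-minus lists, and 4 of the 6 M15 replicate 1 points lie below the 10% line.

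By max signal, Egr1 carried the best-ranked peak of the 6 loci in M15 replicate 1 and in both KTS-minus libraries. By total signal Junb was ahead of Egr1 in all 4 libraries, with best ranks of 0.683%, 0.0985%, 0.0878% and 0.056% against 4.01%, 1.56%, 0.48% and 0.279%. The Egr1 peak of highest max signal lay in the region chr18:35018011-35021732, at -7.0 to -3.3 kb from the midpoint. Its max signal was 91 and 24 in M15 replicates 1 and 2 and 62 and 105 in KTS-minus replicates 1 and 2. By rank this was 5.27% and 1.74% of the M15 lists and 0.0389% and 0.0563% of the KTS-minus lists, or places 339.5 of 6440, 1058 of 60925, 121 of 310999 and 137.5 of 244428 (tied peaks share a mean place). Both KTS-minus places were ahead of both M15 places even as plain numbers, although the KTS-minus lists are longer. The middle of the stretch of max signal, here called the summit, was at -4365 and -4357 bp from the midpoint in M15 and at -4340 and -4352 bp in KTS-minus. The 4 summits therefore fell within 25 bp of each other. Over all 5331 regions in all 4 libraries, 11.5% had their 4 summits within 100 bp, and at the 6 loci this one of 10 regions did.

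A second Egr1 region, chr18:35023687-35029483, covered the midpoint and was weaker than the first in every library. Its max signal was 31 and 18 in M15 replicates 1 and 2 and 29 and 29 in KTS-minus, at ranks of 59.1%, 3.80%, 0.909% and 16.5%. The KTS-minus replicate 1 peak there was 5797 bp wide, and the M15 peaks were 2849 and 1490 bp wide. A further region, chr18:35045677-35048275, named after its values were seen, was listed in M15 replicate 1 at the weak end of its list (max signal 16, rank 93.4%), in KTS-minus replicates 1 and 2 at ranks of 1.40% and 9.63%, and not in M15 replicate 2. WT1 peaks covered 7.5% and 6.2% of the Egr1 window in M15 and 35.8% and 12.6% in KTS-minus replicates 1 and 2. Chromosome 18 was otherwise sparse, with a median cover over its 90 kb tiles of 0 in both M15 libraries and of 5.42% in KTS-minus replicate 1, and at most 0.893% of its tiles were covered as much as the Egr1 window in any library. Over the whole genome the share of tiles covered as much was 1.04% and 11.9% for the M15 replicates and 11.8% and 15.9% for the KTS-minus replicates. The best region in both KTS-minus libraries and no M15 library, chr18:35048943-35051190, had a max signal of 16 and 21, at ranks of 23.8% and 48.5%.

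The locus of Fos, whose product needs a JUN partner to bind DNA as AP-1, had 3 regions in all 4 libraries. They lay at -19.3 to -17.4 kb from the midpoint (chr12:86795682-86797581), across it (chr12:86812479-86816157) and at 10.9 to 14.3 kb (chr12:86825881-86829299). For the left region the M15 peaks reached 48 and 22 and the KTS-minus peaks 22 and 57, at ranks of 26.6%, 2.2%, 4.82% and 0.538%. For the middle region the M15 peaks reached 29 and 7 and the KTS-minus peaks 22 and 54, at ranks of 64.0%, 54.8%, 4.82% and 0.665%. For the right region the M15 peaks reached 45 and 15 and the KTS-minus peaks 32 each, at ranks of 31.0%, 6.07%, 0.55% and 9.63%. By max signal the middle region, nearest the midpoint, was thus the weakest of the 3 in both M15 libraries. It stood level with the left one in KTS-minus replicate 1 and came second in KTS-minus replicate 2. By total signal its peak was the highest in M15 replicate 1 (26378, against 21954 left and 22042 right). In KTS-minus replicate 1 it exceeded the left (24734 against 7628) but not the right (33508). In M15 replicate 2 it was lowest (9070, against 9564 and 16395). In KTS-minus replicate 2 its 2 peaks (12309 and 11670) were each below the left (22655) and the stronger right peak (15332). The summits of the middle region were at -341, -364 and -335 bp in M15 replicate 1 and the KTS-minus replicates but at -1138 bp in M15 replicate 2. Chromosome 12 was sparse as well, with a median tile cover of 2.71% and 1.57% in the KTS-minus libraries. Peaks covered 7.21%, 8.0%, 23.8% and 9.57% of the window in M15 replicates 1 and 2 and KTS-minus replicates 1 and 2, and at most 1.11% of the tiles on this chromosome were covered as much. Over the whole genome 1.14%, 8.79%, 23.7% and 26.0% of tiles were. At equal list length no Fos region was left in all 4 libraries.

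Jun, which encodes a partner of Fos in AP-1, had 1 M15 peak in each replicate and no other in its window. The shared region, chr4:94716475-94721700, lay 1.5 to 6.7 kb right of the midpoint. Its max signal was 78 and 28 in M15 replicates 1 and 2 and 28 and 70 in KTS-minus replicates 1 and 2. The M15 ranks were 8.16% and 1.12% and the KTS-minus ranks 1.13% and 0.256%, so the lines overlapped, by the near tie of M15 replicate 2 with KTS-minus replicate 1. Its peaks were wide, at 3467 and 3685 bp for M15 and 3964 and 2972 bp for the KTS-minus libraries, and 6.04%, 1.23%, 2.34% and 1.03% of the peaks in these lists were at least as wide. The summits formed 2 places, with M15 replicate 1 and KTS-minus replicate 1 at 4344 and 4266 bp and the replicates numbered 2 at 5002 and 5072 bp. The numbers do not tie these libraries together in the labels. KTS-minus replicates 1 and 2 listed 16 and 17 peaks in the window but shared 2 regions, and 28 of the 30 Jun regions were in 1 library. Chromosome 4 tiles were covered as much as the Jun window in 5.78% and 21.9% of cases in M15 and in 32.2% and 8.44% in KTS-minus. Over the whole genome the shares were 4.65% and 21.5% for M15 and 31.0% and 14.1% for KTS-minus.

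Junb, which encodes another AP-1 subunit, carried the widest peaks. The region chr8:87497934-87512718 ran from -2.1 to 12.7 kb from the midpoint. Its strongest peak was 7578 and 7430 bp wide in M15 replicates 1 and 2 and 14785 and 7021 bp in KTS-minus. Of the peaks in these lists, 0.45%, 0.159%, 0.107% and 0.106% were at least as wide. The M15 peaks reached a max signal of 55 and 23 and the KTS-minus peaks 42 and 73, at ranks of 19.6%, 1.97%, 0.163% and 0.219%. Both KTS-minus libraries were ahead of both M15 libraries, also as places in the list (1265, 1197.5, 507.5 and 536). In M15 and in KTS-minus replicate 2 the region was made of 2 or more peaks, which the single wide KTS-minus replicate 1 peak joined. The summits of the strongest peaks lay at 3932, 3810 and 4173 bp in M15 and KTS-minus replicate 1 and at 388 bp in KTS-minus replicate 2, in a peak that ran from -1408 to 5612 bp. A second region, chr8:87512830-87515395, followed after a short gap and was found in all 4 libraries (max signal 41, 18, 34 and 34; ranks 37.7%, 3.80%, 0.408% and 6.81%). Its summits fell within 331 bp.

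Peaks covered 47.0% and 59.2% of the central 20 kb of Junb in M15 replicates 1 and 2 and 86.7% and 50.7% in KTS-minus. Over the whole window they covered 16.0%, 21.5%, 44.1% and 22.0%. In 0.147%, 1.72%, 7.11% and 3.88% of all tiles the cover was as high. The flanks of the same width were covered to 1.51% and 2.7% in M15 replicate 1. In KTS-minus replicate 1 they were covered to 38.0% and 52.4%, and the right flank exceeded the window there. Prdx2 and Hook2 are the protein-coding neighbours of Junb in the RefSeq gene order, and whether the wide peaks reach them was not tested. The best region shared by the KTS-minus libraries alone, chr8:87484956-87486023, had a max signal of 19 and 29 (ranks 10.8% and 16.5%), the best mean rank among the 6 regions of this kind, 1 named per locus.

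**Figure D3:**
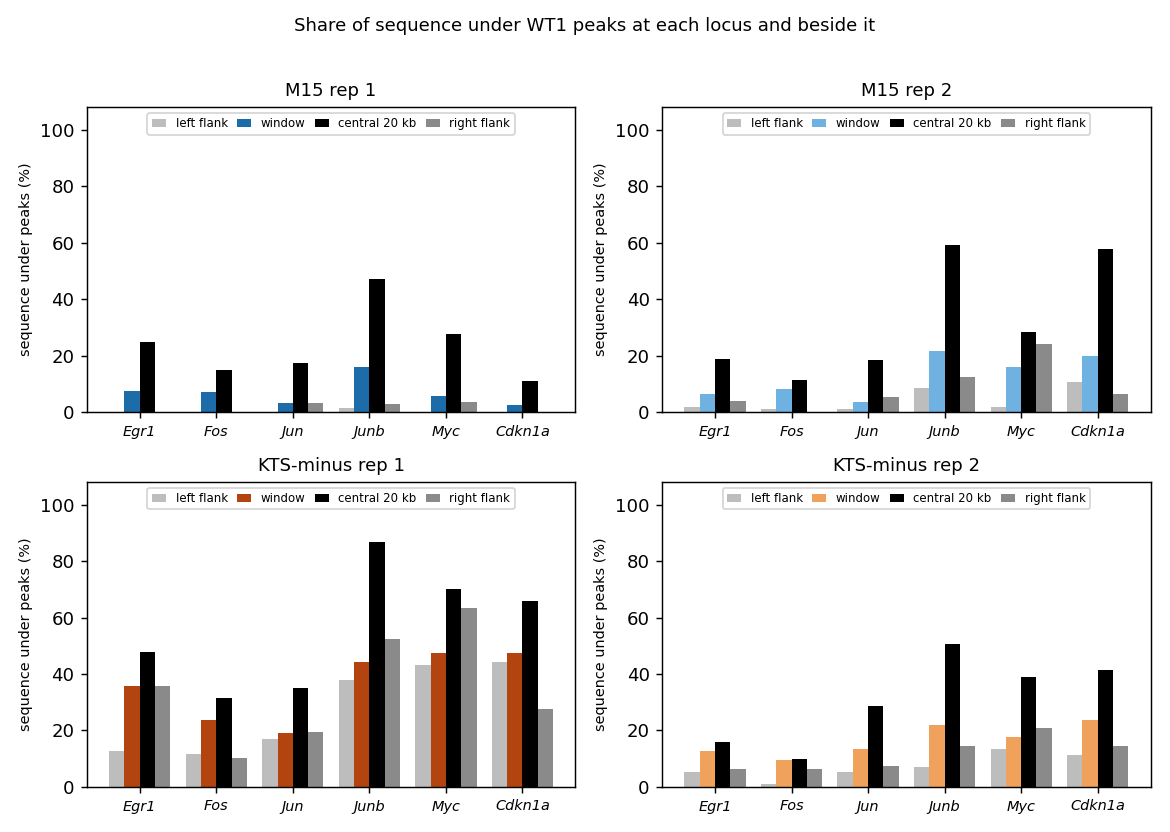
Percentage of sequence under peaks in the left flank, the window, its central 20 kb and the right flank of each locus, with 1 panel per library and flanks as wide as the window. The central 20 kb exceeds the whole window at all loci in each library, from 9.83% against 9.57% at Fos in KTS-minus replicate 2 to 86.7% against 44.1% at Junb in KTS-minus replicate 1.

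Myc had 1 region in all 4 libraries, chr15:61814201-61819989, which began at -5.8 kb and ended at the midpoint. Its max signal was 61 and 24 in M15 replicates 1 and 2 and 31 and 51 in KTS-minus, at ranks of 15.1%, 1.74%, 0.638% and 0.839%. As places in the list, both M15 libraries (974.5 and 1058) were ahead of both KTS-minus libraries (1984 and 2051), the reverse of the order by percentage. M15 replicate 1 listed a single peak of 5502 bp here, and 1.41% of its list was as wide. M15 replicate 2 split the same stretch into 2 peaks, of which the stronger was 2744 bp wide. The summits ranged over 2607 bp, with M15 replicate 2 and KTS-minus replicate 1 at -3223 and -3248 bp, KTS-minus replicate 2 at -3871 bp and M15 replicate 1 at -1264 bp.

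The Myc window lay in a chromosome with dense peaks. It held 1 and 12 peaks in M15 replicates 1 and 2 and 26 and 17 in KTS-minus, the largest spread between the M15 replicates at any of the 6 loci. Peaks covered 5.5%, 15.9%, 47.4% and 17.8% of it, but the right flank was covered to 24.0%, 63.5% and 20.8% in M15 replicate 2 and KTS-minus replicates 1 and 2. Of the tiles on chromosome 15, 5.13%, 6.27%, 15.8% and 16.9% were covered as much as the Myc window in M15 replicates 1 and 2 and KTS-minus replicates 1 and 2. Further M15 replicate 2 peaks lay in 8 Myc regions without M15 replicate 1, the best of them, named after its values were seen, at chr15:61855280-61860694 (max signal 15, rank 6.07%), where KTS-minus ranked 18.4% and 33.8%. The best region shared by the KTS-minus libraries alone, chr15:61834965-61837578, had a max signal of 14 and 25, at ranks of 38.5% and 29.7%. The widest peak at the locus was a KTS-minus replicate 1 peak of 10438 bp that crossed the right edge of the window.

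Cdkn1a, the gene of the cell-cycle inhibitor p21, was the locus whose best peak ranked lowest in M15 replicate 1. The only region in all 4 libraries, chr17:29227240-29232933, lay at -7.8 to -2.1 kb from the midpoint. Its max signal was 32 and 16 in M15 replicates 1 and 2 and 18 and 37 in KTS-minus, at ranks of 56.7%, 5.15%, 14.1% and 4.24%. Inside this region the M15 summits were at -2594 and -2564 bp and the KTS-minus summits at -4384 and -4352 bp. Replicates thus fell within 32 bp of each other in each line, and the lines were 1789 bp apart. Of all 5331 regions in all 4 libraries, 33 (0.619%) had replicate summits within 100 bp in each line and 1 kb or more between the lines. This rule was set after the Cdkn1a summits had been seen. A summit marks the highest coverage in the strongest peak, and the M15 replicate 1 peak, 2207 bp wide, began at -4486 bp, so that it also covered both KTS-minus summits.

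The strongest Cdkn1a region was absent from M15 replicate 1. At chr17:29238052-29246251, 3.1 to 11.3 kb right of the midpoint, the max signal was 21 in M15 replicate 2 and 38 and 44 in KTS-minus replicates 1 and 2. The ranks were 2.5%, 0.255% and 1.67%, a mean of 1.48% over the 3 libraries. M15 replicate 2 listed 2 peaks there, with summits at 4925 and 8546 bp, and KTS-minus replicate 2 listed a pair of equal max signal with summits at 4923 and 8559 bp and a weaker peak between them. KTS-minus replicate 1 joined the stretch into 1 peak of 6194 bp with its summit at 6328 bp. M15 replicate 1 therefore lists the Cdkn1a locus without its strongest region. In M15 replicate 2, 8 regions of the window had a peak, and no other region there had an M15 peak. Of these 8, 7 were in both KTS-minus libraries. For regions with an M15 peak this held for 25 of 32 at the 6 loci and for 42.3% over the whole lists. Peaks of the M15 libraries covered 2.45% and 19.9% of the window and those of the KTS-minus libraries 47.4% and 23.6%. The best region shared by the KTS-minus libraries alone, chr17:29275091-29276233, had a max signal of 18 and 26.

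**Figure D4:**
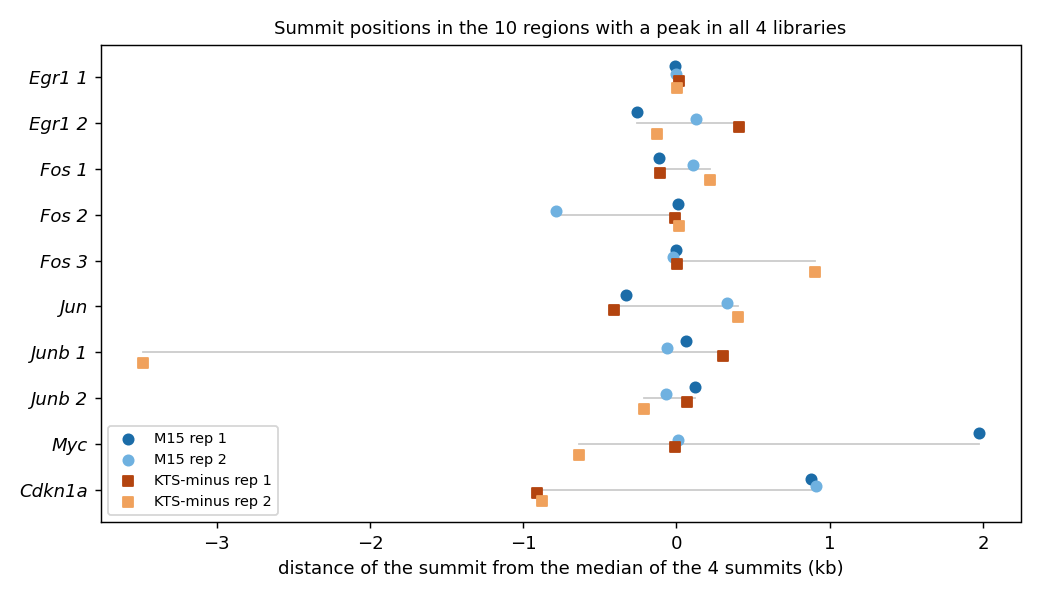
Summits of the strongest peak of each library in the 10 regions with a peak in all 4 libraries, as the distance in kb from the median of the 4 summits; circles are M15 and squares KTS-minus libraries, and regions of a locus are numbered from left to right. The first Egr1 region has its summits within 25 bp, while at Cdkn1a the lines stand 1789 bp apart with replicates together.

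Across the 10 regions in all 4 libraries, summits were spread over a median of 804.5 bp (25 to 3785 bp), against 524 bp over all 5331 such regions. The M15 replicates were within 100 bp at 3 of the 10 regions (57.3% of all) and the KTS-minus replicates at 3 (27.2% of all). When only the stretches of max signal had to overlap, 3 regions were left in all 4 libraries, 1 each at Egr1, Fos and Junb. With 50% reciprocal overlap, 6 M15 replicate 1 peaks each met a peak of every other library, at Egr1, Fos, Jun and Junb, and none at Myc or Cdkn1a. The other libraries were not compared with each other under this setting. At equal list length 4 regions were left, 1 each at Egr1, Jun, Junb and Myc. Egr1 and Junb were the 2 loci that kept a region under all 3 of these settings.

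Of the 31 regions of M15 replicate 2, 10 (32.3%) had a peak in M15 replicate 1, against 11.0% of its regions over the whole list. A further 14 (45.2%) were in both KTS-minus libraries and not in M15 replicate 1, against 31.9% over the whole list. These 14 were 2 at Egr1, 1 at Fos, 1 at Junb, 4 at Myc and 6 at Cdkn1a, and none at Jun. The KTS-minus libraries both listed each of the 11 regions of M15 replicate 1, as they did 91.7% of its regions over the whole list. Among the 142 regions, 65 were listed in KTS-minus replicate 1 alone and 29 in KTS-minus replicate 2 alone. Regions in 1 library of either line made up 66.9% of the 142, against 78.3% of all regions. The shares for each KTS-minus library alone were not computed over the whole lists.

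The 16 regions in both KTS-minus libraries and no M15 library were 4 at Egr1, 1 at Fos, 1 at Jun, 3 at Junb, 3 at Myc and 4 at Cdkn1a. None of the 6 with the best mean rank, 1 per locus, was in the top 10% of either list, while single peaks of others reached 8.25% at Egr1, 6.3% at Junb and 5.76% at Cdkn1a in 1 of the libraries. At Fos it was chr12:86792417-86793821, with a max signal of 11 and 15 at ranks of 68.7% and 82.3% in KTS-minus replicates 1 and 2. At Jun it was chr4:94700236-94702632, with 10 and 12 at ranks of 78.9% and 93.9%. The Cdkn1a one ranked 14.1% and 26.0%.

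The order of the lines depended on how rank was expressed. As a percentage of the list, both KTS-minus libraries were ahead of both M15 libraries at 5 of 6 loci, all but Jun. The same held in 59.4% of the 3995 tiles with a peak in all 4 libraries, and a strong peak takes a smaller percentage in a longer list. As a place in the list, both KTS-minus libraries were ahead at 2 loci, Egr1 and Junb (9.99% of these tiles), and both M15 libraries at 1, Myc (43.0%). At Fos, Jun and Cdkn1a the places of the lines overlapped. Within M15, replicate 2 was ahead of replicate 1 by percentage at all 6 loci, as in 98.2% of these tiles. By place it was ahead at 3 loci, Fos, Junb and Cdkn1a (36.4% of these tiles), and replicate 1 was ahead at Egr1, Jun and Myc. The best ranks of replicate 1 ran from 5.27% at Egr1 through 8.16% at Jun, 15.1% at Myc, 19.6% at Junb and 26.6% at Fos to 56.7% at Cdkn1a, while replicate 2 stayed between 1.12% and 2.5%.

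Peaks at the loci were wide for their lists in M15 replicate 1, with a median of 2606.5 bp against 1673 bp in the whole list. The medians were 1229 and 1009 bp in M15 replicate 2, 1140 and 1108 bp in KTS-minus replicate 1 and 841 and 684 bp in KTS-minus replicate 2. The central 20 kb made up 21.4% of the windows and was reached by 8 of 12 and 15 of 37 peaks in M15 (66.7% and 40.5%). In KTS-minus 24 of 113 and 27 of 88 peaks reached into it (21.2% and 30.7%). A peak counted if any part of it lay there, which a wide peak meets more easily. The share of peaks is therefore not directly comparable with the share of sequence. The central share of peaks was above the share of sequence in both M15 libraries and in KTS-minus replicate 2, and close to it in KTS-minus replicate 1. By cover, the window exceeded both flanks at 5 loci in M15 replicate 1, 4 in M15 replicate 2, 2 in KTS-minus replicate 1 and 5 in KTS-minus replicate 2. How often a tile elsewhere exceeds both of its neighbours was not computed, so these counts have no genome share beside them. Median cover over the 6 windows was 6.36%, 11.9%, 40.0% and 15.6%, against medians over all 90 kb tiles of 0, 0.949%, 11.5% and 5.44%.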

How the data were processed

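The build mm9 and the tools SEACR 1.3, bedtools 2.23.0, Bowtie2 2.2.6, SAMtools 1.3, Picard 2.5.0 and FastQC 0.11.8 come from the submitters' processing notes. How each was run, which control SEACR took and whether coverage was scaled, for example to the yeast spike-in, is not given in the sources used here. The authors deposited 1 SEACR peak list per WT1 library with the summed signal and the highest signal (coverage) of each peak as whole numbers. Read depth is unknown, as the lists hold no read counts. Signal was used within a list only.

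Windows came from the rule that defines the loci. Peaks overlapping a window by at least 1 bp were kept and merged into regions at 1 bp. Ranks used mid-ranks for ties. The genome background is 29312 tiles of 90 kb and 131934 of 20 kb on chromosomes 1 to 19 and X, treated the same way. Named regions were those in all 4 libraries (at most 3 per locus), the strongest peak per library, the best region of 1 line alone and the widest peak. Members, lists and rules were chosen with earlier results of these data known, and the summit distances and the looser motif were added after the peaks had been seen. No mm9 gene table was used. The merging was checked on simulated lists of well-separated peaks, so the joining of several peaks by a wide one was not checked. Python 3.11.15, numpy 2.4.6, pandas 2.3.3 and matplotlib 3.10.9 were used.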

Additional observations from a re-analysis of the deposited data

How the results depend on the processing

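The 6 loci kept a region in all 4 libraries without any single library, in windows cut to their central 50% and in lists cut to the 50% of highest total signal. Counts that moved by more than 1.5 times were as follows, and the cause was not tested beyond what each setting removes. With stretches of max signal alone, shared M15 regions numbered 4, shared KTS-minus regions 5, regions in all 4 libraries 3, loci with one 3 and loci with one in the central 20 kb 2. With 50% reciprocal overlap, shared KTS-minus regions numbered 11, regions in all 4 libraries 6 and loci with one in the central 20 kb 3. Counted here were peaks of replicate 1, of KTS-minus or of M15, that met a peak of each other library. At equal list length, shared KTS-minus regions numbered 5 and regions in all 4 libraries 4. Shared KTS-minus regions numbered 26 in lists cut to the 50% of highest total signal and 27 in windows cut to their central 50%. Loci with a top 10% peak in all 4 libraries numbered 4 by total signal and 0 for the top 5%. Leaving out a library gave 10 to 24 regions in all remaining libraries and 2 to 6 loci with a top 10% peak, the highest without M15 replicate 1. With 1 replicate of a line left out nothing can be shared within it, and the values of 12 to 37 for M15 and 88 to 113 for KTS-minus are only the peaks of the library that is left. Merging over whole chromosomes, added after seeing the data, moved no count by over 1.5 times. Of 24 best ranks per locus and library, 11 moved by more than the replicate SD when ranked by total signal. Of 24 peak numbers, 9 moved by over 1.5 times in lists cut to the 50% of highest total signal. No paired analysis was possible because no test was made and nothing in the labels ties same-numbered replicates together. Read depth is unknown, and its part in the counts was not tested.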
